A study of Mus musculus with 4 samples.

Results

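The 10 genes described here belong to the smooth muscle contractile apparatus, and they were followed in mouse colonic epithelial cells of both Stat4 genotypes, with and without leukemia inhibitory factor (LIF). They are Acta2, Actg2, Cnn1, Myh11, Tagln, Des, Mylk, Lmod1, Synpo2 and Tpm2, and they were taken by symbol from a table of 17604 genes, in which all 10 were listed. Each was above 1 FPKM in all 4 libraries. FPKM is the density of sequenced fragments per gene, scaled for transcript length and library size.

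The 4 groups were Stat4-/- cells with LIF, wild-type cells with LIF, Stat4-/- control cells and wild-type control cells, all of strain C57BL/6. Intestinal epithelial cells (IECs) from the colon were plated on Matrigel, a basement membrane gel, in medium with serum and insulin, and unattached material was removed after 24 h. LIF, an interleukin-6-type cytokine whose receptor pairs LIFR with gp130, was given at 20 ng/ml, and the labels give no duration of exposure for a sample. STAT4, missing in Stat4-/- mice, is a transcription factor that carries cytokine signals to the nucleus. The labels list 1 library per group, and the design text speaks of duplicates without saying whether these were pooled. The number of animals behind a library, and their age, are not stated. How the cells were separated from the colon wall, which holds muscle coats, is likewise not described in the labels used here.

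Contraction of smooth muscle rests on filaments of smooth muscle actin (Acta2, Actg2) and myosin (Myh11), on the kinase that starts contraction by phosphorylating the myosin regulatory light chain (Mylk), and on proteins that coat, cap or anchor the actin filaments. Many of these genes carry CArG boxes, short DNA elements bound by serum response factor (SRF), whose coactivators myocardin and the myocardin-related factors (MRTFs) switch the set on. In the gut the genes mark the muscularis externa, the muscularis mucosae, vessel walls and myofibroblasts, and they are not regarded as epithelial genes. Mylk and Tpm2 are also used by non-muscle cells.

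RefSeq start-site windows (GRCm38.p6), from 250 bases before to 50 bases after the start, were matched for 7 of the 10 genes, all but Actg2, Myh11 and Tagln. An exact CArG box lay in 535 of 32851 windows of this length over the whole table (1.63%) and in 0 of the 7. Elements with at most 1 difference from it, on either strand and allowing overlaps, lay in 21.1% of all windows and in 2 of the 7, those of Acta2 and Lmod1. The Acta2 window (chr19:34255324-34255623, minus strand) held one at positions -84 to -75 and one at positions -34 to -25 from the start. The gene boundary given for Acta2 below (34255590) lies within this window, upstream of that start. The positions therefore hold for the RefSeq start only. The Lmod1 window (chr1:135324563-135324862, plus strand) held them at positions -189 to -180 and -164 to -155. The windows of Cnn1 (chr9:22099003-22099302, plus strand) and Des (chr1:75360042-75360341, plus strand), the members with the largest genotype differences, held no such element. All 4 are printed 5′ to 3′ on the strand of the gene for comparison, with the near-matches in capitals. A match is a description of the letters only.
Acta2: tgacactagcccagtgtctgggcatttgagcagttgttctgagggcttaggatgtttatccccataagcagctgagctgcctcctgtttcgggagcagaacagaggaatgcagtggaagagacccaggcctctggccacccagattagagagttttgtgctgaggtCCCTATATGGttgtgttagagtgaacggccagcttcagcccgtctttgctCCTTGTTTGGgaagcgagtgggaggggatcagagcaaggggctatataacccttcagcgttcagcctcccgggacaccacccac
Lmod1: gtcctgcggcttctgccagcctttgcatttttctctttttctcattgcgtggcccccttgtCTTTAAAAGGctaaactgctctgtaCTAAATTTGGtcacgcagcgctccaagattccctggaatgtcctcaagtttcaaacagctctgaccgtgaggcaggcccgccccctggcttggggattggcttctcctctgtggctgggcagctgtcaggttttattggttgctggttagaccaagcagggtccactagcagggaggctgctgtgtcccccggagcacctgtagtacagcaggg
Cnn1: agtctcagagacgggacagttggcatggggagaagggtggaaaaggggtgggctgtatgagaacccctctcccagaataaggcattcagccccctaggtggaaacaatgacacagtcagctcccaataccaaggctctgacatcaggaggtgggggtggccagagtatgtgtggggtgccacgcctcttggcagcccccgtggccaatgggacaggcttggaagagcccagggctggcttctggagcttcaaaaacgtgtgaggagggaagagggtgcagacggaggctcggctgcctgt
Des: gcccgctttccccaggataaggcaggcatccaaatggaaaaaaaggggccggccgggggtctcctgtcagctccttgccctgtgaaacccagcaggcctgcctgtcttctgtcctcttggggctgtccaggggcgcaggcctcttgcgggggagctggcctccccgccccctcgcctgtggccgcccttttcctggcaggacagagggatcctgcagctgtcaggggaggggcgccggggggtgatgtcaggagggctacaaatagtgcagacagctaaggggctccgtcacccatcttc

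Before the members, the libraries themselves were checked. Stat4 stood at 2.98 FPKM in Stat4-/- and 20.5 FPKM in wild-type cells with LIF, and at 2.01 FPKM in Stat4-/- and 19.7 FPKM in wild-type cells without it, which goes with the genotype labels. The Lif gene was itself expressed, at 63.6 FPKM in Stat4-/- and 45.4 FPKM in wild-type cells with LIF. The control libraries had 63.8 FPKM in Stat4-/- and 41.8 FPKM in wild-type cells, so "without LIF" here means without added LIF. Estimated depths ran from 22 to 27.6 M (mega) fragments. All 16 epithelial markers were tested, and their summed level was 10419 FPKM in Stat4-/- and 11194 FPKM in wild-type cells with LIF, and 11012 FPKM in Stat4-/- and 11333 FPKM in wild-type cells without it. The 10 smooth muscle genes made up 0.0671 and 0.0548% of all listed FPKM in the Stat4-/- and wild-type libraries with LIF, and 0.0771 and 0.0599% in the Stat4-/- and wild-type libraries without it.

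Tagln was the most abundant member in every library, with a mean of 114 FPKM over the 4 libraries, above the ranges of all the others. Acta2 (mean 34.7 FPKM), Tpm2 (34.0 FPKM) and Actg2 (27.7 FPKM) followed, and their ranges over the libraries overlapped. Cnn1 (20.3 FPKM), Myh11 (17.2 FPKM) and Des (16.0 FPKM) came next, again with overlapping ranges. Cnn1 reached into the ranges of Acta2, Tpm2 and Actg2. Myh11 reached into the range of Actg2, and Des touched the lower end of that range. Mylk (5.98 FPKM) and Synpo2 (4.86 FPKM) overlapped each other and lay below Des in all libraries. Lmod1 was lowest at 1.71 FPKM, without overlap with Synpo2. At the estimated depths, Lmod1 rested on about 125 to 217 fragments per library, while Cnn1 rested on about 607 to 1740.

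**Figure D1:**
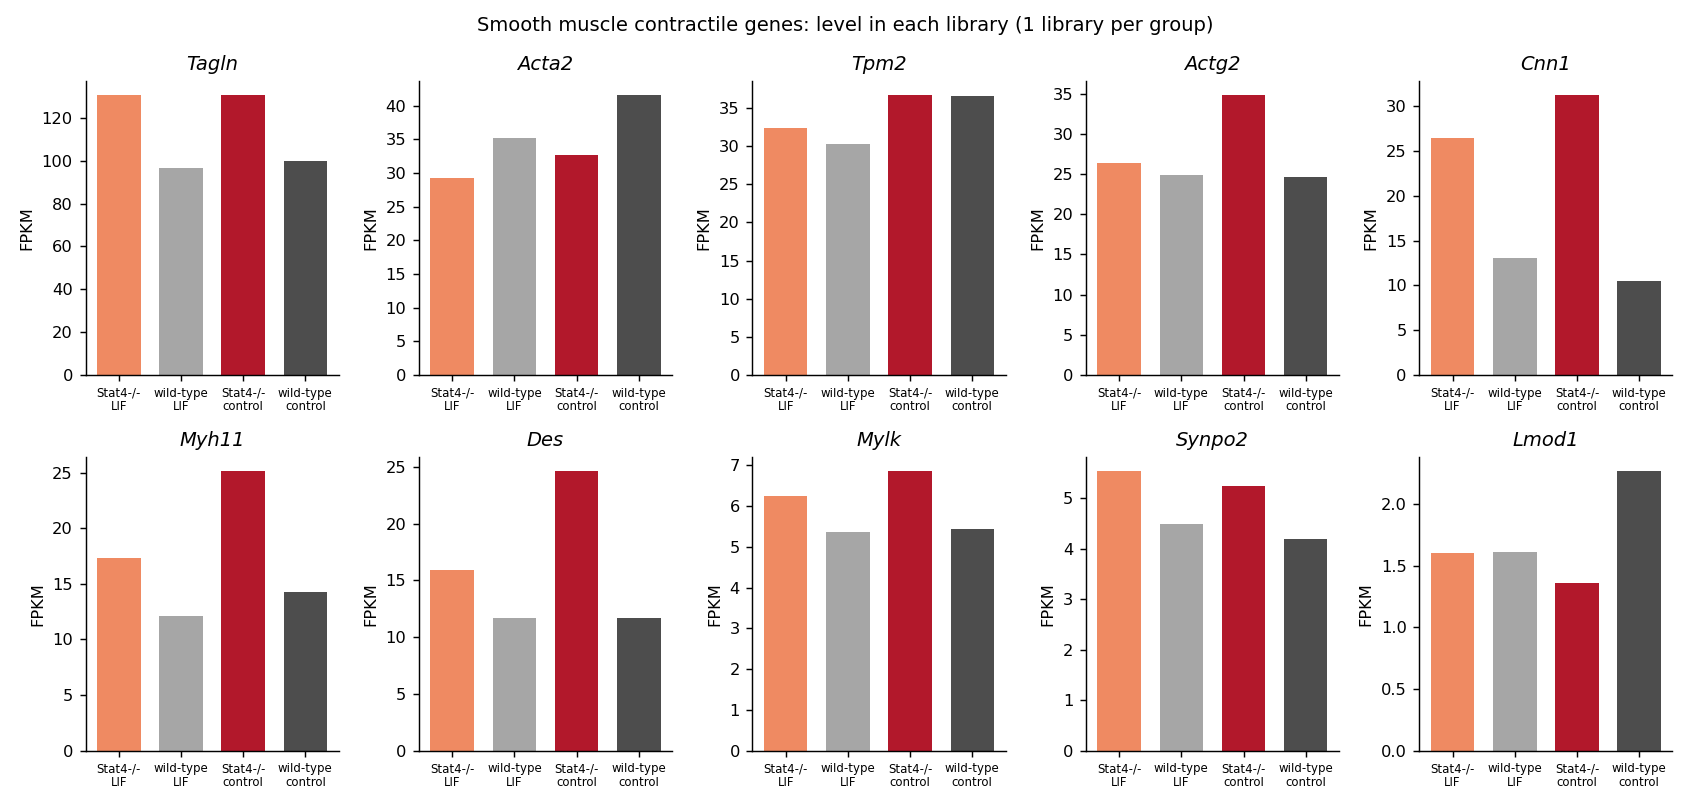
FPKM of each gene (vertical axes, starting at 0) in the Stat4-/- LIF, wild-type LIF, Stat4-/- control and wild-type control libraries, 1 bar per library and no error bars since each group has 1 library. Cnn1, Myh11 and Des are higher in both Stat4-/- libraries, Acta2 is lower in both, and Tpm2 overlaps.

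The genotype comparison asks which genes differ between Stat4-/- and wild-type cells. The labels do not say which libraries share a cell preparation. A genotype difference therefore cannot be told apart from a difference between preparations. Of the 10 genes, Cnn1, Des, Myh11, Tagln and Actg2 rose in Stat4-/- cells, Acta2 fell, and Mylk, Synpo2, Tpm2 and Lmod1 did not pass the test. The 5 higher and 1 lower calls compare with 7.81% of all 12274 tested genes called higher and 7.68% called lower. The test was a limma fit of genotype and treatment as additive terms on log2(FPKM + 1), two-sided, with Benjamini-Hochberg adjustment over all tested genes and a threshold of 0.05. It sets 2 Stat4-/- libraries against 2 wild-type libraries, leaves 1 residual degree of freedom, and takes a prior of 10.2 degrees of freedom from the spread of genes of like abundance. Both Stat4-/- libraries lay above both wild-type libraries for 7 members, which held for 24.4% of all tested genes, and below both for Acta2 and Lmod1, which held for 28.9%. The difference of Lmod1 with LIF was -0.01 on the log2(FPKM + 1) scale and turned to 0.01, 0.05 and 0.07 with median-of-ratios, quantile and epithelial scaling, so its side of wild type with LIF is not settled. The median coefficient of the 10 genes was 0.27, against -0.01 over all tested genes. Without the mean-variance trend Cnn1 alone of the 10 genes was called, and without the filter on low values Actg2 and Des were not called. In bulk RNA, fewer or more cells of a type and less or more RNA per cell cannot be told apart.

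Among the filament-forming members, myosin was higher and the actins parted. Myh11, the smooth muscle myosin heavy chain (chr16:14194535-14291372, minus strand in mm10), stood at 17.4 FPKM in Stat4-/- and 12.1 FPKM in wild-type cells with LIF. Without LIF it stood at 25.2 FPKM in Stat4-/- and 14.3 FPKM in wild-type cells. The Stat4-/- libraries were 1.43-fold higher with LIF and 1.76-fold higher without it, with no overlap, and limma gave a coefficient of 0.63 ± 0.08 (SE, adjusted p = 0.000391).

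Acta2, the actin of vascular smooth muscle and myofibroblasts (chr19:34241090-34255590, minus strand), was at 29.3 FPKM in Stat4-/- and 35.25 FPKM in wild-type cells with LIF. The control libraries had 32.6 FPKM in Stat4-/- and 41.6 FPKM in wild-type cells. Both Stat4-/- values lay below both wild-type values, and Acta2 was the one member that fell (limma coefficient -0.30 ± 0.06 SE, adjusted p = 0.00481). Actg2, the actin of enteric smooth muscle (chr6:83512905-83536265, minus strand), was at 26.4 FPKM in Stat4-/- and 24.9 FPKM in wild-type cells with LIF, and at 34.8 FPKM in Stat4-/- and 24.7 FPKM in wild-type cells without it. The Stat4-/- control library was the high one, the other 3 lay close together, and the call was close to the threshold (limma coefficient 0.28 ± 0.08 SE, adjusted p = 0.0455). Actg2 passed in 2 of 8 alternative settings. The level of Actg2 as a percent of Acta2 was 90.04 in Stat4-/- and 70.7 in wild-type cells with LIF, and 107 in Stat4-/- and 59.3 in wild-type cells without it, so the enteric isoform weighed more in both Stat4-/- libraries.

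The proteins that bind along the actin filament held the largest difference of the set. Cnn1 encodes calponin 1, which binds actin and restrains the myosin ATPase (chr9:22099216-22109630, plus strand). Its level was 26.5 FPKM in Stat4-/- and 13.1 FPKM in wild-type cells with LIF, and 31.3 FPKM in Stat4-/- and 10.5 FPKM in wild-type cells without it. That is 2.03-fold higher with LIF and 2.97-fold higher without it, with wide separation of the genotypes in each treatment. The limma coefficient was 1.23 ± 0.10 (SE, adjusted p = 1.57e-05), and Cnn1 passed in all 8 alternative settings, with adjusted p up to 0.0465. On the log2(FPKM + 1) scale its difference without LIF ranked 11 from the top of 12274 genes.

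Tagln, which encodes the actin-bundling protein transgelin (SM22; chr9:45929619-45936058, minus strand), was at 131 FPKM in Stat4-/- and 96.5 FPKM in wild-type cells with LIF. Without LIF the values were 131 FPKM in Stat4-/- and 99.9 FPKM in wild-type cells. The 2 libraries of each genotype were nearly equal, and Tagln rose by a coefficient of 0.41 ± 0.04 (SE, limma adjusted p = 8.26e-05). Exons of Tagln overlap those of Pcsk7 and Gm48529 on the other strand, and the strand setting of the counting is not stated. Pcsk7 was at 15.4 FPKM in Stat4-/- and 15.8 FPKM in wild-type cells with LIF, at 16.1 FPKM in Stat4-/- and 16.4 FPKM in wild-type cells without it, and did not pass the test (limma adjusted p = 0.808). Exons of Des overlap Gm15179, and those of Mylk overlap E130310I04Rik and Gm21691, all on the other strand, so the same limit holds for both. For the other members at most 1.20% of the 31-base words were shared with another gene, the highest being Acta2 with Actg1.

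Tpm2 encodes beta-tropomyosin, which lies along actin filaments (chr4:43514711-43523765, minus strand). It was measured at 32.4 FPKM in Stat4-/- and 30.2 FPKM in wild-type cells with LIF, and at 36.7 FPKM in Stat4-/- and 36.6 FPKM in wild-type cells without it. The genotypes overlapped, and the coefficient was 0.05 ± 0.06 (SE, limma adjusted p = 0.612). Lmod1 encodes leiomodin 1, which nucleates actin filaments (chr1:135324807-135368065, plus strand). Its level was 1.60 FPKM in Stat4-/- and 1.61 FPKM in wild-type cells with LIF, and 1.36 FPKM in Stat4-/- and 2.27 FPKM in wild-type cells without it. Only the wild-type control library stood apart, on the high side, and the test was not passed (coefficient -0.24 ± 0.16 SE, limma adjusted p = 0.365).

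The anchoring and signalling members were above wild type in both treatments, and of these Des passed the test. Des encodes desmin, the muscle intermediate filament (chr1:75360329-75368579, plus strand), and was at 16.0 FPKM in Stat4-/- and 11.7 FPKM in wild-type cells with LIF. Without LIF it was at 24.7 FPKM in Stat4-/- and 11.7 FPKM in wild-type cells. The wild-type libraries were the same within 0.03 FPKM, the Stat4-/- libraries were 1.37-fold higher with LIF and 2.12-fold higher without it, and the coefficient was 0.72 ± 0.12 (SE, limma adjusted p = 0.00151). Stat4 itself lies on the chromosome of Des and Lmod1 (chr1:51987148-52107189, plus strand). Any part of sequence linked to the Stat4 locus was not tested.

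Mylk, the myosin light chain kinase gene (chr16:34745210-35002420, plus strand), was at 6.24 FPKM in Stat4-/- and 5.36 FPKM in wild-type cells with LIF, and at 6.87 FPKM in Stat4-/- and 5.45 FPKM in wild-type cells without it. Synpo2, which encodes the actin-bundling protein synaptopodin 2 (chr3:123076519-123236149, minus strand), was at 5.54 FPKM in Stat4-/- and 4.48 FPKM in wild-type cells with LIF, and at 5.23 FPKM in Stat4-/- and 4.19 FPKM in wild-type cells without it. Both were above wild type in each treatment with no overlap between genotypes. Neither passed the test, with coefficients of 0.24 ± 0.10 (SE, limma adjusted p = 0.140) for Mylk and 0.26 ± 0.11 (SE, limma adjusted p = 0.128) for Synpo2.

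The limma count over all genes was 959 higher and 943 lower. Scaling the libraries to the 16 epithelial markers moved that split to 2152 higher and 404 lower and the split of the members to 7 higher and 0 lower. That scaling moved the median genotype difference of all genes to 0.10 with LIF and 0.09 without it. Acta2 was then at -0.19 and no longer called (limma adjusted p = 0.0582), while Mylk and Synpo2 were called.

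**Figure D2:**
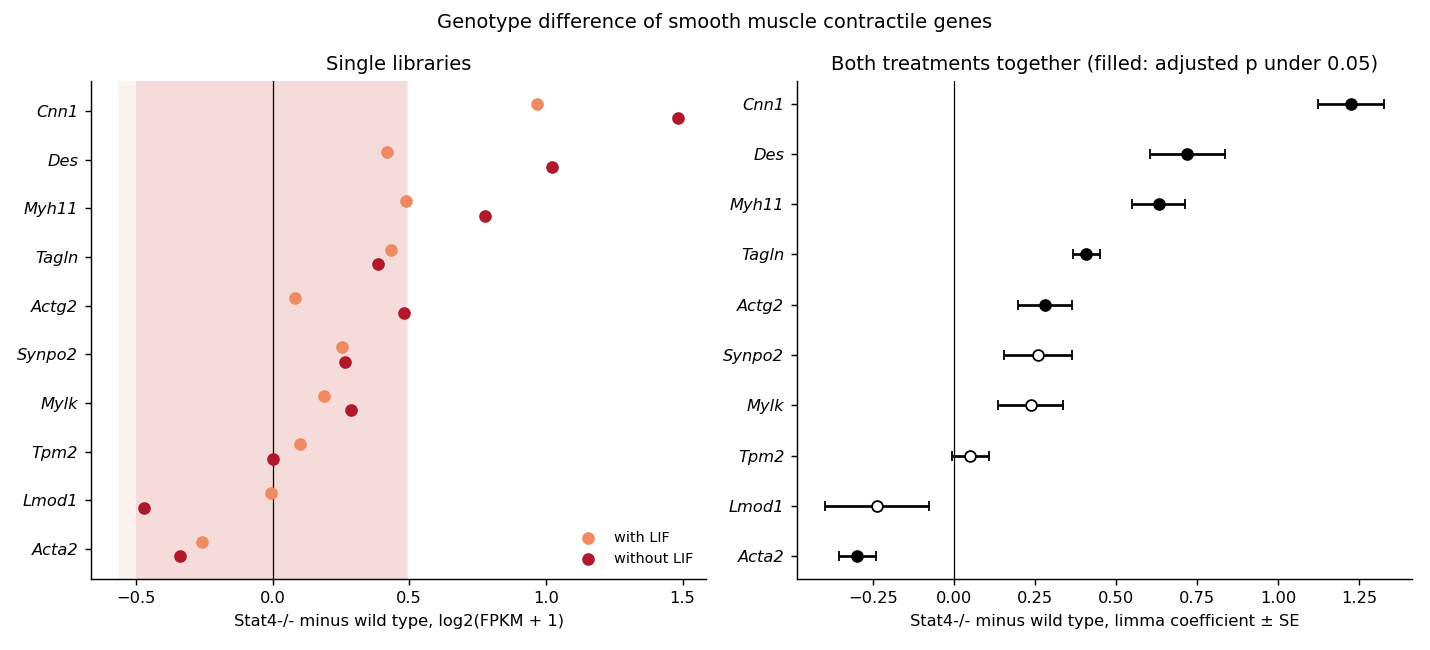
Left, difference Stat4-/- minus wild type in log2(FPKM + 1) for each gene with and without LIF, each point being 1 library against 1 library, with shading over the central 95% of all 12274 tested genes. Right, limma genotype coefficient with its SE over both treatments; filled circles passed the test. Cnn1, Des and Myh11 lie furthest to the right without LIF, Acta2 lies left of 0 in both treatments, and Lmod1 does so without LIF while lying at about 0 with it, on either side by scaling.

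Within single treatments the genotype difference has no replicate check, and a size rule of at least 2-fold on the log2(FPKM + 1) scale was used. Cnn1 (1.48) and Des (1.02) passed it without LIF, where 0.318% of all genes did. With LIF 0 members passed, where 0.293% of all genes did, and Cnn1 came closest at 0.97. For 8 of the 10 genes the genotype difference lay further from 0 without LIF than with it, against 48.2% of all tested genes. Des had 0.42 with LIF and 1.02 without it, Myh11 0.49 and 0.78, and Actg2 0.08 and 0.48 in the same order. Tagln (0.43 with LIF, 0.38 without it) and Tpm2 (0.10 with LIF, 0.00 without it) were the other two. The count further from 0 without LIF fell from 8 to 7 with median-of-ratios, quantile or epithelial scaling. It was 6 of the 8 members with a mean of at least 5 FPKM. Whether the genotype difference depends on LIF was not tested, because an interaction term leaves 0 residual degrees of freedom with these libraries. The comparisons within treatments and within genotypes share libraries.

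The LIF comparison asks which genes differ when the cytokine is added. By limma, 0 of the 10 genes passed for the LIF effect, where 0.823% of all genes were called in either direction. At an unadjusted p under 0.05 there were 5 members, namely Myh11, Tpm2, Acta2, Des and Actg2, and all 5 had coefficients below 0. Over all genes 12.5% reached that unadjusted level in either direction and 4.52% with a coefficient below 0. In the alternative settings 3 or 4 members reached it, and Actg2 did so in none of them. Myh11 came nearest to the threshold, with a coefficient of -0.37 ± 0.08 (SE, limma adjusted p = 0.0703). The median LIF coefficient of the 10 genes was -0.14, against 0.00 over all tested genes. Cnn1 (0.03), Tagln (-0.02), Mylk (-0.07), Synpo2 (0.07) and Lmod1 (-0.09) had coefficients within 1 SE of 0.

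By genotype, 0 members reached a 2-fold LIF difference in Stat4-/- cells, where 0.122% of all genes did, and 0 in wild-type cells, where 0.13% did. The LIF difference was below 0 in both genotypes for Acta2, Myh11, Mylk and Tpm2, which held for 29.3% of all tested genes. It was above 0 in both for Synpo2 and of opposite sign for the other 5, against 41.1% of all tested genes. The count of opposite signs was 4 with epithelial, 3 with upper-quartile and 2 with quantile scaling, and the count below 0 in both was 5, 6 and 7 in the same order. In Stat4-/- cells Des had 16.0 FPKM with LIF and 24.7 FPKM in control, a log2 difference of -0.60, while in wild-type cells it had 11.7 FPKM with LIF and 11.7 FPKM in control. Myh11 showed -0.51 in Stat4-/- and -0.22 in wild-type cells, and Actg2 -0.39 in Stat4-/- and 0.01 in wild-type cells. Those 3 differences in Stat4-/- cells were among the lowest of 12274 genes, at ranks 64 for Des, 102 for Myh11 and 263 for Actg2. Tpm2 and Acta2 were shifted a little more in wild-type cells, with -0.17 in Stat4-/- and -0.27 in wild-type cells for Tpm2 and -0.15 in Stat4-/- and -0.23 in wild-type cells for Acta2.

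**Figure D3:**
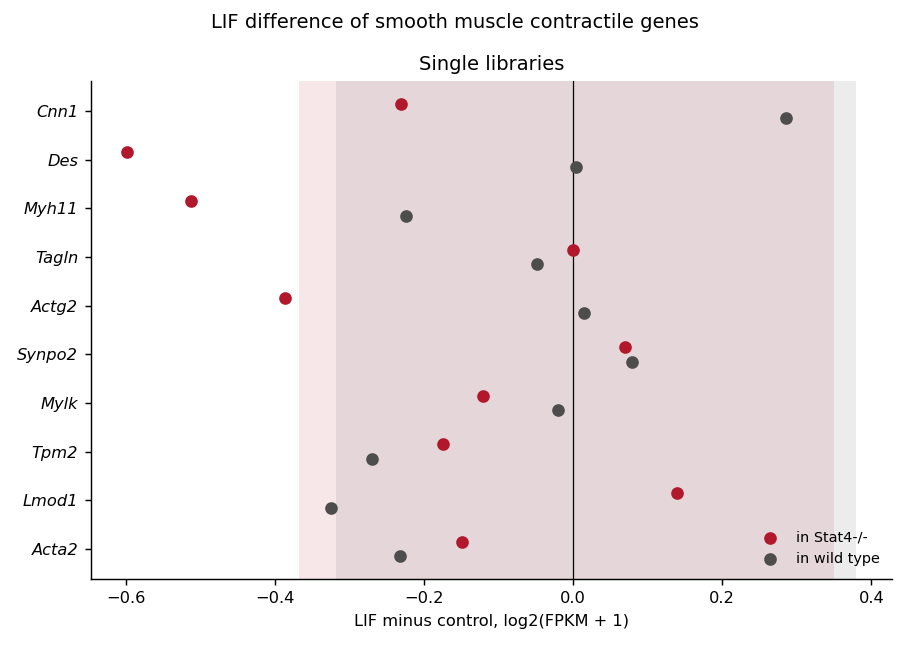
Difference LIF minus control in log2(FPKM + 1) for each gene, in Stat4-/- and in wild-type cells, each point being 1 library against 1 library, with shading over the central 95% of all 12274 tested genes in each genotype. Des, Myh11 and Actg2 lie left of the shading in Stat4-/- cells, Lmod1 lies just left of it in wild-type cells, and the others lie within it.

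Several members have close relatives that non-muscle cells use, and these give a reference within each library. The non-muscle calponin gene Cnn2 fell, at 62.7 FPKM in Stat4-/- and 71.5 FPKM in wild-type cells with LIF and 66.5 FPKM in Stat4-/- and 79.2 FPKM in wild-type cells without it (limma coefficient -0.22, adjusted p = 0.00987). Cnn1 as a percent of Cnn2 was therefore 42.3 in Stat4-/- and 18.3 in wild-type cells with LIF, and 47.0 in Stat4-/- and 13.3 in wild-type cells without it. The mesenchymal filament gene Vim also fell (coefficient -0.17, limma adjusted p = 0.00552), and Des as a percent of Vim was 5.04 in Stat4-/- and 3.29 in wild-type cells with LIF, and 7.37 in Stat4-/- and 3.07 in wild-type cells without it. Myh11 was a minor myosin beside the non-muscle Myh9, at 6.09% in Stat4-/- and 4.37% in wild-type cells with LIF, and 8.27% in Stat4-/- and 4.82% in wild-type cells without it. Among 18 tested relatives, 0 were called higher and 7 lower (Actb, Actg1, Vim, Myh14, Cnn2, Tagln3 and Tmod1), with a median coefficient of -0.07. Not all of these relatives are non-muscle genes. The list also holds Acta1, a muscle actin gene, and Tpm1, which is counted among the other smooth muscle genes below as well.

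**Figure D4:**
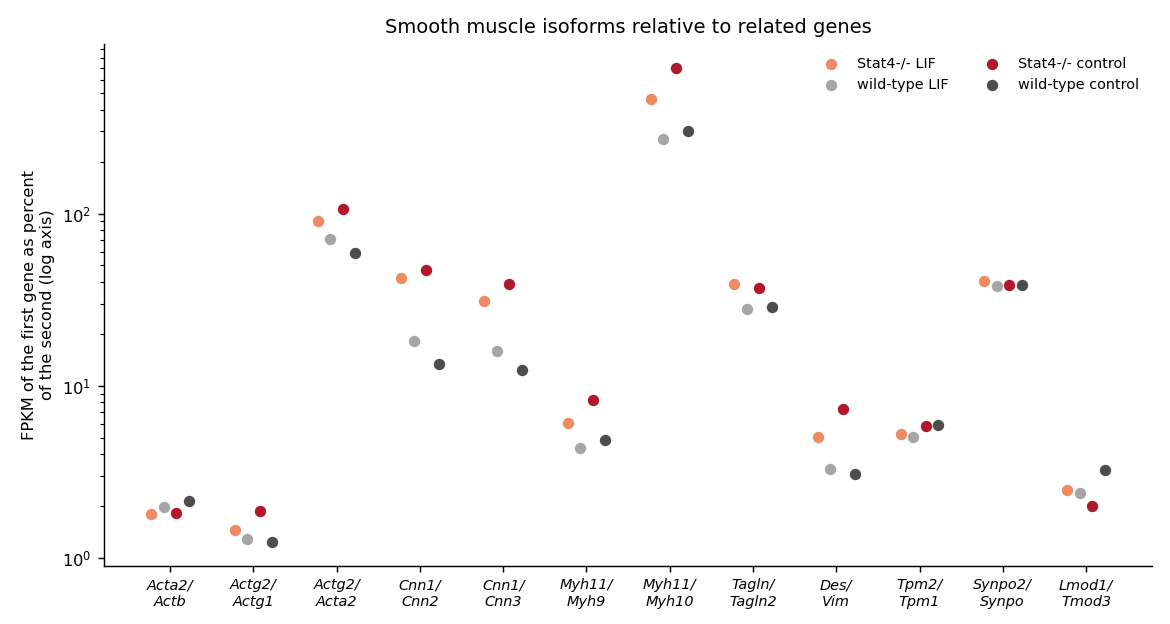
FPKM of a smooth muscle gene as a percent of the FPKM of a related gene (log axis), 1 point per library. Cnn1 over Cnn2 and Cnn3, Myh11 over Myh9 and Myh10, Des over Vim, Tagln over Tagln2 and Actg2 over Acta2 are higher in both Stat4-/- libraries, while Tpm2 over Tpm1 and Synpo2 over Synpo differ little.

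Other genes of the contractile program went in both directions. Of 23 tested from a list of 32 other smooth muscle genes, 2 rose, 5 fell and 16 were not called, with a median coefficient of -0.05. Myl9, the smooth muscle myosin regulatory light chain and the substrate of the Mylk product, rose, at 44.2 FPKM in Stat4-/- and 30.3 FPKM in wild-type cells with LIF and 45.8 FPKM in Stat4-/- and 29.45 FPKM in wild-type cells without it (coefficient 0.58, limma adjusted p = 5.24e-05). Pdlim3, an actin-associated PDZ and LIM protein gene, rose too (coefficient 0.60, limma adjusted p = 0.0129). Caldesmon (Cald1, coefficient -0.15), Filip1l (-0.43), Fhl1 (-0.37) and the junctophilin gene Jph2 (-0.39) were among those that fell. Tpm1 and Csrp1, the most abundant of the list, had coefficients of 0.04 and -0.05 and were not called. Ppp1r14a, which encodes an inhibitor of myosin phosphatase, had its highest value in the Stat4-/- control library, as Des did, and did not pass the test, with 5.37 FPKM in Stat4-/- and 5.13 FPKM in wild-type cells with LIF, and 9.28 FPKM in Stat4-/- and 4.19 FPKM in wild-type cells without it (limma adjusted p = 0.0625).

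Most regulators of the program did not pass the test. Srf was at 29.8 FPKM in Stat4-/- and 26.6 FPKM in wild-type cells with LIF, and at 27.5 FPKM in Stat4-/- and 25.9 FPKM in wild-type cells without it (limma adjusted p = 0.213). Myocd, the gene of myocardin, was at 0.79 FPKM in Stat4-/- and 0.89 FPKM in wild-type cells with LIF, and at 1.04 FPKM in Stat4-/- and 0.95 FPKM in wild-type cells without it, which is below the level needed to enter the test. Of 18 tested regulators 0 were higher and 2 lower. These were Klf4, a repressor of smooth muscle genes (coefficient -0.26, limma adjusted p = 0.00564), and the ligand gene Tgfb3 (coefficient -0.70, limma adjusted p = 0.00847). Whether either bears on the levels of the members was not tested. Of 17 tested genes that SRF and the MRTFs drive in many cell types, 0 were higher and 7 lower, with a median coefficient of -0.09. This list shares genes with the relatives above, and Actb, Actg1 and Cnn2 are among the lower calls of both.

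Markers of other cells that carry these genes, or lie beside them in the colon wall, were set beside the result. Fibroblast markers (20 of 20 tested) summed to 759 FPKM in Stat4-/- and 798 FPKM in wild-type cells with LIF, and to 772 FPKM in Stat4-/- and 801 FPKM in wild-type cells without it. Among them Lum rose and Fn1, Mgp and Col1a1 fell. Pericyte and vascular mural markers (10 of 11 tested) summed to 133 FPKM in Stat4-/- and 138 FPKM in wild-type cells with LIF, and to 143 FPKM in each genotype without it. Of these Rgs5, a marker of pericytes, rose, at 11.2 FPKM in Stat4-/- and 7.30 FPKM in wild-type cells with LIF and 12.4 FPKM in Stat4-/- and 7.17 FPKM in wild-type cells without it (limma adjusted p = 0.000605). The other 9 tested markers were not called, and the list had a median coefficient of -0.09. Higd1b of the same list was listed at 0 in the Stat4-/- LIF library.

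Endothelial markers likewise had more genotype calls higher than lower, with 6 of 12 higher and 0 lower. Their sums were 616 FPKM in Stat4-/- and 512 FPKM in wild-type cells with LIF, and 577 FPKM in Stat4-/- and 516 FPKM in wild-type cells without it. Their median LIF difference in Stat4-/- cells was 0.07, against -0.16 for the smooth muscle genes. Leukocyte markers also had 5 of 10 higher and 0 lower, summing to 140.1 FPKM in Stat4-/- and 104 FPKM in wild-type cells with LIF, and to 111 FPKM in Stat4-/- and 87.1 FPKM in wild-type cells without it. Epithelial markers had 2 of 16 higher and 6 lower. Of markers of the interstitial cells of Cajal, the gut pacemaker cells, 3 of 5 were tested and 1 (Ano1) fell, and their sums were 36.0 FPKM in Stat4-/- and 42.4 FPKM in wild-type cells with LIF and 40.3 FPKM in Stat4-/- and 45.7 FPKM in wild-type cells without it.

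Enteric glia and neuron markers, cells that lie within the muscle layers, had 0 of 10 higher and 3 lower, Gfap and Elavl4 among them, with sums of 132 FPKM in Stat4-/- and 145 FPKM in wild-type cells with LIF and 137 FPKM in Stat4-/- and 141 FPKM in wild-type cells without it. Mesothelial markers had both tested genes lower, Msln and Krt19, of which Krt19 is also an epithelial keratin, and Upk3b and Bnc1 were listed at 0 in the wild-type control library. Their sums, nearly all Krt19, were 1909 FPKM in Stat4-/- and 2334 FPKM in wild-type cells with LIF, and 2143 FPKM in Stat4-/- and 2438 FPKM in wild-type cells without it. The 13 listed striated muscle genes together reached 7.55 FPKM in Stat4-/- and 9.38 FPKM in wild-type cells with LIF, and 11.2 FPKM in Stat4-/- and 9.26 FPKM in wild-type cells without it. That list does not hold the skeletal muscle actin gene Acta1, which is among the relatives above and was far more abundant. Acta1 was at 116 FPKM in Stat4-/- and 108 FPKM in wild-type cells with LIF. Without LIF it was at 127 FPKM in Stat4-/- and 120 FPKM in wild-type cells, and it did not pass the test (limma adjusted p = 0.191). Myh1 was at 0 in all but the Stat4-/- LIF library, Myh2 was at 0 in the Stat4-/- control and wild-type LIF libraries, and Myh6 was at 0 in the wild-type LIF library. The part of any of these cell types in the smooth muscle result was not tested.

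**Figure D5:**
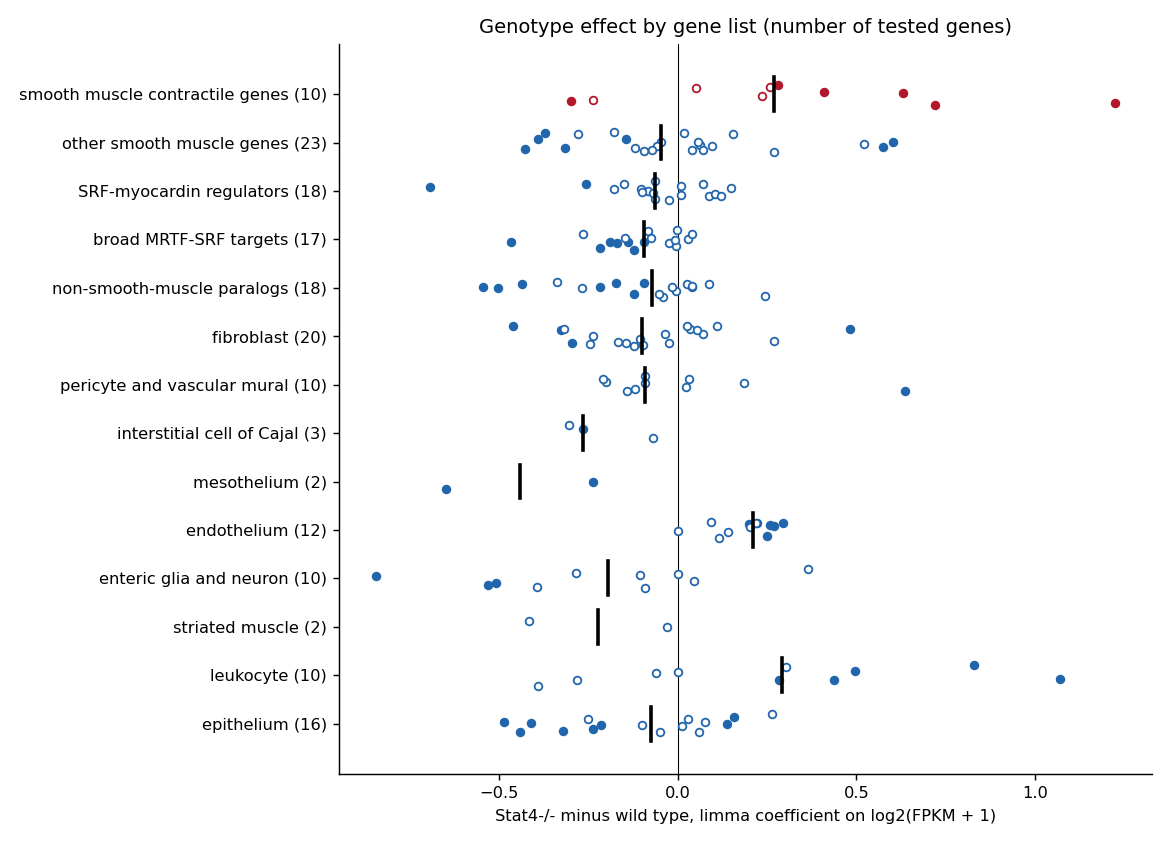
Limma genotype coefficient (Stat4-/- minus wild type, log2 scale) of every tested gene in each list, 1 circle per gene, filled where the test was passed, with a black bar at the median and the number of tested genes in parentheses. The 10 smooth muscle genes have a median of 0.27, the 23 other smooth muscle genes -0.05, the fibroblast list -0.10, the endothelial list 0.21 and the leukocyte list 0.29.

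The genes whose pattern over the 4 libraries came closest to the median pattern of the members were sought among 8830 other genes whose mean reached 5 FPKM, by Euclidean distance of centred log2(FPKM + 1) values. The 10 nearest were Cox18, Slc41a1, Dym, Rabl3, BC003965, Limk1, Tut1, Mt2, Btbd9 and Apobec3, at distances of 0.03 to 0.06. Cox18, for example, stood at 12.9 FPKM in Stat4-/- and 10.98 FPKM in wild-type cells with LIF, and at 14.2 FPKM in Stat4-/- and 10.8 FPKM in wild-type cells without it. Among the members Mylk lay nearest to that median pattern (0.05) and Cnn1 furthest from it (0.97). With 4 libraries, such closeness is a description only.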

How the data were processed

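RNA was measured by sequencing in 4 libraries, 1 per group. Per the labels' protocols, libraries were made from total RNA with the Illumina TruSeq RNA kit. HISAT and Bowtie2 with mm10 are named, per the submitters' processing notes, while versions, counting program and annotation were not given in the sources used here. As deposited, the table gives FPKM rounded to 2 decimals, per the file headers, and 0 value columns were left unused. The smooth muscle genes and all gene lists were chosen with earlier results of these data known.

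Genes with a mean of 1 FPKM or more (12274) were compared on log2(FPKM + 1), a scale that understates changes of low genes. Limma 3.58.1 in R 4.3.3 with a mean-variance trend tested genotype and LIF additively, counting any interaction as error. The fit was tested on simulated data. With 1 library per group and nothing naming separate cultures or animals, p-values measure no spread between like libraries. They rest on the departure from additivity and on the prior taken from other genes. Single-treatment differences have no test and were called at 2-fold. Text names every smooth muscle gene, and of other lists the limma calls, or else the most abundant and most shifted. Myocd, Srf, Pcsk7, Acta1, Lif, relatives that serve only in ratios (Cnn3, Myh9, Synpo) and markers listed at 0 are named outside that rule, after their values were seen. Some genes that the rule would name are not reported here.

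The table holds no counts. Depth was estimated from steps of whole fragments in low FPKM values of 161 to 185 short genes, of which 61.1 to 69.3% lay within 0.15 of a whole number, so fragment numbers are approximate and cover counting error only. Positions and 31-base words came from GENCODE M21 (mm10), and start-site windows from RefSeq. Alternatives were another pseudocount, no filter or a mean of at least 5 FPKM, 4 scalings and no variance trend.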

Additional observations from a re-analysis of the deposited data

Results flagged for a closer look

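The LIF difference, on log2(FPKM + 1), had opposite signs in the genotypes for 5 of the 10 smooth muscle genes, and this is what marked them for a closer look. Over all tested genes 41.1% had opposite signs, and the count among the smooth muscle genes was 4 with epithelial, 3 with upper-quartile and 2 with quantile scaling, the last being Cnn1 and Lmod1. Subtracting the difference in wild-type cells from that in Stat4-/- cells gave -0.60 for Des, -0.52 for Cnn1, -0.40 for Actg2, 0.46 for Lmod1 and 0.049 for Tagln. For Des, Actg2 and Tagln the difference in one genotype was within 0.02 of 0, so their opposite signs rest on values close to none. Cnn1 had -0.23 in Stat4-/- and 0.28 in wild-type cells, and Lmod1, the least abundant gene of the set, 0.14 in Stat4-/- and -0.33 in wild-type cells. The difference between genotypes was not tested, since an interaction term leaves 0 residual degrees of freedom.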

How the results depend on the processing

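The genotype call of Cnn1 passed in 8 of 8 alternatives, Myh11 and Tagln in 7 of 8, Acta2 and Des in 6 of 8 and Actg2 in 2 of 8, and no called direction changed. The uncalled difference of Lmod1 with LIF turned from -0.01 to at most 0.07 under 3 of 4 scalings. Against 5 smooth muscle genes called higher and 1 lower, no filter on low values called 3 higher, and a fit without a mean-variance trend called 1 higher (Cnn1) and 0 lower. Scaling to the epithelial list called 0 lower. Over all genes the counts were 407 higher and 357 lower without the filter, 2152 and 404 with the epithelial scaling, and 123 and 128 without the trend, against 959 and 943. With LIF, 1 smooth muscle gene (Cnn1) was at least 2-fold higher with a pseudocount of 0.1 or with the epithelial scaling, against 0. Genes called for LIF numbered 101, against 129 with a mean of at least 5 FPKM and 37 with a pseudocount of 0.1. They numbered 1 without the filter, 6 with median-of-ratios, 11 with upper-quartile, 4 with quantile and 2 with epithelial scaling, and 1 without the trend. The smooth muscle genes had 0 LIF calls in each of these. Without the filter more genes are tested, and the unadjusted p-values changed too. For the genotype effect on Des the unadjusted limma p went from 5.65e-05 to 0.00295. Why the counts move with the setting was not tested. No paired analysis was possible because each group has 1 library and the labels give only the replicate number 1. Leaving out a library leaves 0 residual degrees of freedom, so it gives no test, and the single-treatment differences in the report are the values without the other treatment. Depth limits Lmod1 most.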
